A study of Rattus norvegicus with 23 samples.

Results

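The 9 genes followed here take part in sodium entry and exit and were measured in 2 rat kidney cell lines under acidic conditions. They are the sodium pump subunits Atp1b1, Atp1b2 and Atp1b3, the pump regulator Fxyd5, the epithelial sodium channel (ENaC) subunit Scnn1a, the kinase Sgk1, the ubiquitin ligase Nedd4l, and the glucocorticoid and mineralocorticoid receptors Nr3c1 and Nr3c2. Members were chosen by gene name in the rat count table, which gave 9 of 30452 genes, each on 1 row. All 9 passed the filter on low counts, as did 14777 genes in all.

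NRK-52E is a rat kidney line labelled as epithelial and NRK-49F a rat kidney line labelled as fibroblast. Both were grown with 10% FCS and 1.5 g/L NaHCO3 at 37 °C and 5% CO2, were then held for 24 h without serum, and were incubated for 48 h at pH 7.4 or at pH 6.0, which was set with HCl. The NaHCO3 concentration is that of the labels, and the study's methods give another. Poly(A) RNA was sequenced from 6 NRK-52E samples at each pH, 6 NRK-49F samples at pH 7.4 and 5 at pH 6.0. No gene was altered in any group, and all 23 samples shared the serum-free period. The labels put each sample in a sample group, 1 or 3 for NRK-52E and 4 or 6 for NRK-49F, without saying what a sample group is, and each holds both pH values. They do not say that samples are separate cultures, so the p-values measure the spread between these samples, which may be technical.

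The Na,K-ATPase exports sodium and imports potassium across the basolateral membrane of kidney tubule cells. Its alpha subunit carries out the transport, its beta subunit is needed for folding and delivery to the membrane, and small FXYD proteins tune its kinetics. On the apical side of the distal nephron, sodium enters through ENaC, which is built from alpha, beta and gamma subunits. Nedd4l tags ENaC with ubiquitin for retrieval from the membrane, and Sgk1 phosphorylates Nedd4l and so lowers that retrieval. Sgk1 and Scnn1a are textbook targets of the corticosteroid receptors Nr3c1 and Nr3c2.

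Total counts per sample ran from 16412564 to 34250535. Levels are given as FPM, counts per 1000000 after TMM scaling, in which 3 counts, taken as the floor, equal 0.0839 to 0.203 FPM. FPM does not correct for gene length, so levels are compared between samples and never between genes. The lines were set against marker genes. Of 10 epithelial markers, 8 were in the table, and Epcam, Krt18, Cldn4, Cldn7 and Esrp1 lay at or under 3 counts in every NRK-52E sample. Cdh1, which encodes E-cadherin, reached 12 counts at most in NRK-52E. The summed epithelial markers, mostly Krt8, were at 463 to 683 FPM in NRK-52E and at 668 to 1207 FPM in NRK-49F at pH 7.4. The keratin Krt7 was at 16.5 to 32.4 FPM in NRK-52E and at 0.466 to 2.24 FPM in NRK-49F at pH 7.4. Of the 8 markers, Krt7 and Krt8 were thus the ones clearly above the floor in NRK-52E. Of 10 fibroblast markers, all 10 were above the floor in NRK-49F at pH 6.0, 9 at pH 7.4, and their sum was 10606 to 13726 FPM in NRK-49F against 4907 to 8103 in NRK-52E at pH 7.4. Both sums were lower at pH 6.0: epithelial markers at 199 to 265 and fibroblast markers at 1831 to 3110 FPM in NRK-52E, and at 438 to 697 and 7372 to 9887 FPM in NRK-49F. Whether the shift in markers has a part in the members' changes was not tested, and in bulk RNA fewer cells of a type and less RNA per cell cannot be told apart.

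RefSeq promoter windows, 250 bases before to 50 bases after a transcript start on build GRCr8, were found for 6 of the 9 genes, 10 windows in all. Atp1b1, Scnn1a and Nr3c2 were without an entry. The 3 windows of Sgk1 are shown because Sgk1 fell at pH 6.0 in every sample group. That of Atp1b3 is shown because its pooled change differed in direction between the lines. In NRK-52E Atp1b3 fell in sample group 3 only, and in NRK-49F its rise was called in sample group 4 only. Capitals mark TATAAA and the GC box GGGCGG on either strand, and the sequences read 5′ to 3′ on the gene's strand.
Sgk1 at chr1:24807182-24807481, minus strand: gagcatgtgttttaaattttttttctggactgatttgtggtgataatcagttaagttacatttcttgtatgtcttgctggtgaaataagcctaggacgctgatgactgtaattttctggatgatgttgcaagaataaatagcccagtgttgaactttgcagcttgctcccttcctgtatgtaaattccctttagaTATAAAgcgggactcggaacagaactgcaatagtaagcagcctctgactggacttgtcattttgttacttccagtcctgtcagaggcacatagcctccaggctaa
Sgk1 at chr1:24805521-24805820, minus strand: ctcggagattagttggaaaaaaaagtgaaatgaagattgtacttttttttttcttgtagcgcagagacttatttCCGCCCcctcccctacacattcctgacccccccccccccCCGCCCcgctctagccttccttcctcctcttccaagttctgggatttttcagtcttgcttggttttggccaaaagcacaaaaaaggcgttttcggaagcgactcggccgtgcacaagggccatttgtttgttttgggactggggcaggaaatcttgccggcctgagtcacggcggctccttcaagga
Sgk1 at chr1:24804782-24805081, minus strand: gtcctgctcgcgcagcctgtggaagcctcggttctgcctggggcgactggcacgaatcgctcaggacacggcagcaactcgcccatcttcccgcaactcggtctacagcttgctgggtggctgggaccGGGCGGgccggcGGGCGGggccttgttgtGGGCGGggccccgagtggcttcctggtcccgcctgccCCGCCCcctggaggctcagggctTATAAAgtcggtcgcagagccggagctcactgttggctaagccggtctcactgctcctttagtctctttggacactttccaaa
Atp1b3 at chr8:105821102-105821401, minus strand: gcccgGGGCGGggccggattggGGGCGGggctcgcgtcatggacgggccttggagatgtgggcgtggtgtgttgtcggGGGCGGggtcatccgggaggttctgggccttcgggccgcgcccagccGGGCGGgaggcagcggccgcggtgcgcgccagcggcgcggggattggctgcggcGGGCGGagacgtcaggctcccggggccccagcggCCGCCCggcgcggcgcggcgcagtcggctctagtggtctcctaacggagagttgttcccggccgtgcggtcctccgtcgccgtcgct
The third Sgk1 window held 1 TATAAA and 4 GC boxes, the first 1 TATAAA and no GC box, and the second 2 GC boxes. The Atp1b3 window held 6 GC boxes and no TATAAA. Over all 33469 windows of that length, 14.2% held TATAAA and 33.1% the GC box. The hexamer AGAACA of the corticosteroid response element, present in 20.7% of all windows, and the palindrome in which it is followed after 3 bases by TGTTCT, present in 0.0149%, were in none of the 10 windows on either strand. These letters are a description and say nothing on binding.

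The main comparison asked which of the 9 genes were acidosis-regulated in each line. In NRK-52E, 8 of 9 passed the edgeR quasi-likelihood test at an adjusted p under 0.05, with 61.2% of all tested genes called. Of these, 7 were lower (36.6% of all tested genes) and 1 was higher (24.7%). The higher gene, Atp1b2, passed the filter on low counts only through acidic NRK-52E samples. The median log2 fold change was −0.72 over the 9 genes and −0.12 over all genes tested. In NRK-49F, 4 of 9 passed, 2 higher (14.5% of all tested genes) and 2 lower (14.4%), against 28.9% in either direction, and the medians were 0.22 and 0.00088. Sgk1 and Nedd4l were called lower in both lines, while Nr3c2 and Atp1b3 were called in opposite directions. In NRK-52E the fall of Atp1b3 was seen in sample group 3 only, and Nr3c2 lay near the floor. Samples of both pH values did not overlap for 4 of 9 genes in NRK-52E (38.6% of all tested genes) and for 4 of 9 in NRK-49F (20.6%).

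**Figure D1:**
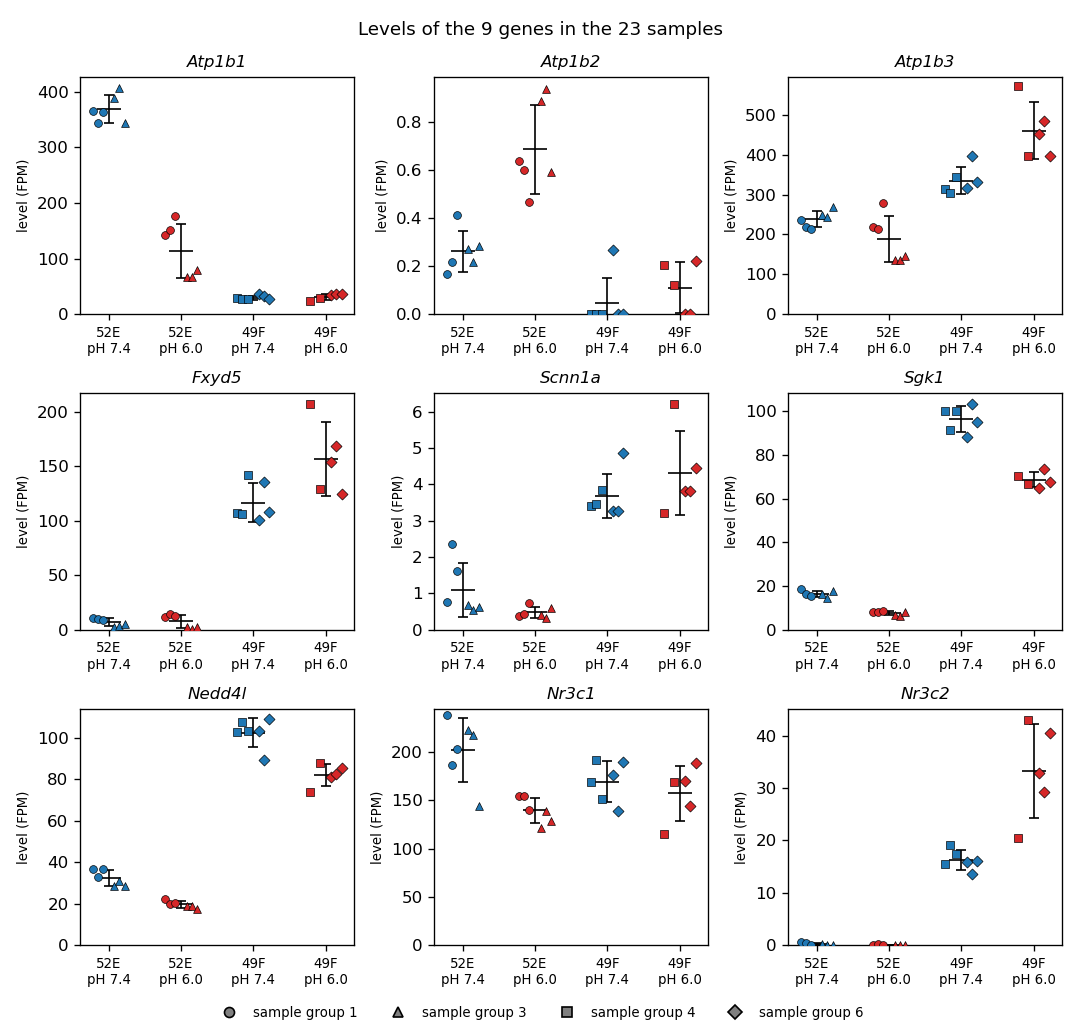
FPM of the 9 genes in all 23 samples, 1 panel per gene with its own linear axis, by cell line and pH; points are samples, the symbol marks the sample group, and bars show the mean ± SD. Sgk1 and Nedd4l lie lower at pH 6.0 in both lines, Atp1b1 is higher in NRK-52E and falls there, and Nr3c2 is near 0 in NRK-52E and higher at pH 6.0 in NRK-49F.

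**Figure D2:**
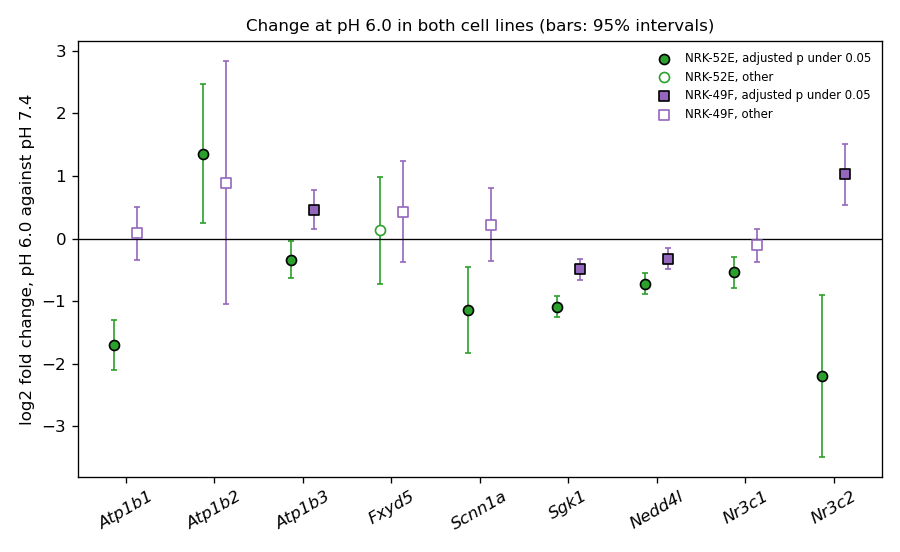
Log2 fold change at pH 6.0 against pH 7.4 for the 9 genes in NRK-52E and NRK-49F, with 95% confidence intervals from the edgeR fit; filled symbols passed an adjusted p of 0.05. In NRK-52E all genes but Atp1b2 and Fxyd5 lie below 0, and in NRK-49F Sgk1 and Nedd4l lie below and Nr3c2 and Atp1b3 above 0 among those that passed.

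Atp1b1 (ENSRNOG00000002934, chromosome 13) encodes the beta 1 subunit, the main beta subunit of kidney tubules. In NRK-52E of sample group 1 it was at 365, 344 and 363 FPM at pH 7.4 and at 141, 151 and 176 FPM at pH 6.0. In sample group 3 it was at 388, 407 and 344 FPM at pH 7.4 and at 66.1, 67.5 and 78.6 FPM at pH 6.0. All 6 acidic samples lay below all 6 controls, and those of sample group 3 lay lowest. The fall was 3.25-fold (log2 fold change −1.70, SE 0.195, adjusted p = 7.48e-08), from 369 ± 25 (SD, n = 6) to 113 ± 48.3 FPM (n = 6). In NRK-49F the level at pH 7.4 was 26.6, 28.1 and 35.8 FPM (lowest, median, highest of 6). At pH 6.0 the 5 samples were at 23.2, 28.1, 34.7, 35.3 and 35.9 FPM. These groups overlapped, and the log2 fold change was 0.08, with a 95% interval from −0.34 to 0.51 (adjusted p = 0.802). The difference between the acid responses of the lines, NRK-52E minus NRK-49F, was −1.78 (SE 0.280, adjusted p = 1.92e-05). In that comparison 6 of 9 genes were called, all more negative in NRK-52E, against 41.4% of all tested genes in either direction and 24.7% in that one.

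Atp1b3 (ENSRNOG00000011501, chromosome 8), the beta 3 subunit, is expressed in many tissues outside the classic tubule pump. In NRK-49F it was at 304, 325 and 397 FPM at pH 7.4 (lowest, median, highest of 6). At pH 6.0 the 5 values were 573, 398, 452, 484 and 398 FPM. The groups did not overlap, by a narrow margin: the highest control was at 397 FPM and the lowest acidic samples at 398 FPM. The mean rose 1.37-fold, from 335 ± 33.3 (n = 6) to 461 ± 72.6 FPM (n = 5; log2 fold change 0.46, SE 0.151, adjusted p = 0.0247). The call was lost without A040 (0.43, adjusted p = 0.0503), without A042 (0.37, adjusted p = 0.0877) or without A055 (0.44, adjusted p = 0.0512). Within the sample groups the rise was called in group 4 and not in group 6. In group 4, which has 2 acidic samples, the change was 0.31 without A042. In group 6 it ranged from 0.29 to 0.45 when 1 sample at a time was left out.

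In NRK-52E the sample groups parted. Atp1b3 in sample group 1 was at 236, 219 and 214 FPM at pH 7.4 and 218, 215 and 279 FPM at pH 6.0, which overlap. In sample group 3 it was at 248, 243 and 268 FPM and then at 136, 136 and 146 FPM, which do not. The change was 0.09 (SE 0.127, adjusted p = 0.585) in sample group 1 and −0.86 (SE 0.128, adjusted p = 9.50e-06) in sample group 3, and the test of that difference gave −0.95 (SE 0.180, adjusted p = 0.00184). Pooled over both, the log2 fold change of −0.34 (SE 0.145) had an adjusted p of 0.0476 and was no longer called with RLE scaling or DESeq2, when NRK-52E was fitted alone, or without any 1 of 14 of the 23 samples. The lines differed by −0.80 (SE 0.210, adjusted p = 0.00375), a call lost with sample groups 1 and 4 only (−0.50, adjusted p = 0.123).

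Atp1b2 (ENSRNOG00000011227, chromosome 10), the beta 2 subunit known from glia and photoreceptors, was close to the floor. In NRK-52E it had 6, 4, 11, 6, 4 and 5 counts at pH 7.4 and 12, 11, 16, 17, 17 and 12 counts at pH 6.0. As FPM the samples did not overlap (0.168 to 0.415 against 0.466 to 0.938), and Atp1b2 was the only member called higher at pH 6.0 in NRK-52E. Only acidic NRK-52E samples carried it past the filter on low counts, so neither the gap nor the call is independent support for a rise. The ratio of pooled counts was 2.54, with a 95% interval of 1.70 to 3.86 that covers counting error only. By edgeR the log2 fold change was 1.36 (SE 0.535, adjusted p = 0.0314), a call lost without A021, A022 or A034. Of the 23 fits that left out 1 sample, Atp1b2 passed the filter in 18 and was called in 15. The call was also lost with no filter beyond 1 count (1.37, adjusted p = 0.0721). It was lost as well with sample groups 1 and 4 only (1.08, adjusted p = 0.0998) and with 3 and 6 only (1.62, adjusted p = 0.112). In NRK-49F it had 0 counts in 5 of the 6 samples at pH 7.4 and 7 in the sample coded A051, and 4, 2, 0, 0 and 4 counts at pH 6.0. Over all NRK-49F samples the log2 fold change was 0.89 (95% interval −1.05 to 2.84, adjusted p = 0.518). A051 decided this value: without it the fitted change was 4.18 (adjusted p = 0.0151), and with sample groups 1 and 4 only it was 4.99 (adjusted p = 0.0308), both against controls that were all at 0 counts, so neither is a bound. With sample groups 3 and 6 only it was −0.65 (adjusted p = 0.807).

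The ratio of Atp1b1 to Atp1b3 counts within a sample does not depend on library scaling. In NRK-52E its mean log2 was 0.63 ± 0.145 at pH 7.4, ranging from 0.36 to 0.77, and −0.79 ± 0.220 at pH 6.0, ranging from −1.04 to −0.51. The samples did not overlap, and the difference of −1.42 had an exact two-sided permutation p of 0.00216, the smallest that 6 against 6 samples can give (0.00866 adjusted over 4 tests). In NRK-49F the mean log2 was −3.50 ± 0.197 and −3.88 ± 0.438, and the difference of −0.38 did not pass after adjustment (exact p = 0.0476, adjusted 0.0635). The ratio shows that the 2 transcripts changed unequally, and not which of them changed.

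**Figure D3:**
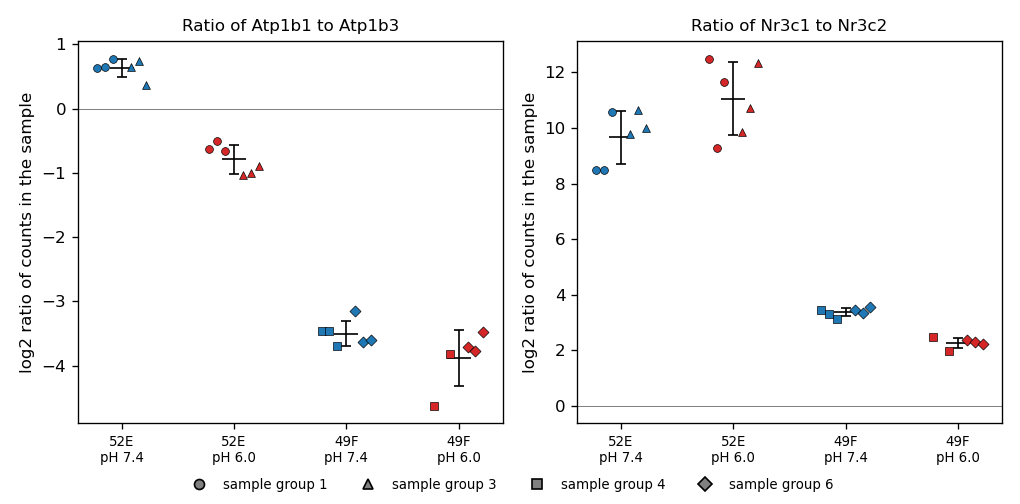
Log2 ratio of counts of Atp1b1 to Atp1b3 and of Nr3c1 to Nr3c2 in each sample, by cell line and pH; points are samples, symbols mark sample groups and bars show the mean ± SD. The Atp1b1 to Atp1b3 ratio falls by 1.42 in NRK-52E, and the Nr3c1 to Nr3c2 ratio falls by 1.11 in NRK-49F.

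Fxyd5 (ENSRNOG00000021062, chromosome 1), also called dysadherin, is a FXYD protein that raises pump activity and affects cell adhesion. It separated the lines more than the pH values. In NRK-52E of sample group 1 it was at 11, 9.79 and 9.36 FPM at pH 7.4 and at 11.5, 14.9 and 12.5 FPM at pH 6.0. In sample group 3 it was at 2.82, 3.82 and 4.87 FPM and at 2.99, 1.05 and 2.96 FPM. At both pH values every sample of group 1 lay above every sample of group 3, and the direction of change differed between the groups. Neither change passed (0.37, adjusted p = 0.219, and −0.69, adjusted p = 0.0617), nor did their difference (−1.06, SE 0.391, adjusted p = 0.0924). Over all NRK-52E samples the log2 fold change was 0.14, with a 95% interval from −0.72 to 0.99 (adjusted p = 0.795). In NRK-49F it was at 101, 107 and 142 FPM at pH 7.4 (lowest, median, highest of 6) and at 207, 129, 154, 169 and 124 FPM at pH 6.0, which overlap (log2 fold change 0.43, 95% interval −0.38 to 1.23, adjusted p = 0.450). The lines share 1 estimate of the spread per gene, so this interval also takes in the spread between sample groups in NRK-52E. Fxyd2, the gamma subunit of the tubule pump, did not pass the filter on low counts. It had at most 1 count in every NRK-52E sample except 3, the acidic samples of group 1, with 7, 7 and 24 counts, and 0 to 5 counts in NRK-49F.

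Scnn1a (ENSRNOG00000019368, chromosome 4) encodes the alpha subunit of ENaC, the subunit without which the channel is barely active. It had 6 to 44 counts per sample in NRK-52E and 57 to 106 in NRK-49F. In NRK-52E of sample group 1 it was at 0.756, 2.37 and 1.62 FPM at pH 7.4 and 0.372, 0.437 and 0.728 FPM at pH 6.0. In sample group 3 it was at 0.683, 0.545 and 0.623 FPM and then at 0.419, 0.331 and 0.592 FPM. The groups of 6 overlapped, and 2 controls of sample group 1 lay far above the others. Scnn1a fell 2.20-fold in NRK-52E (log2 fold change −1.14, SE 0.333, adjusted p = 0.00487), and the ratio of pooled counts, 66 against 150, was 0.474 (95% interval 0.349 to 0.637, counting error only). Within sample group 1 the change was −1.49 (adjusted p = 0.00330) and within sample group 3 it was −0.45 (95% interval −1.43 to 0.52, adjusted p = 0.426). The test of their difference did not pass (1.04, SE 0.612, adjusted p = 0.316). In NRK-49F Scnn1a was at 3.26, 3.43 and 4.85 FPM at pH 7.4 (lowest, median, highest of 6) and at 3.21, 6.22, 3.82, 3.83 and 4.44 FPM at pH 6.0. They overlapped, with a log2 fold change of 0.22 (95% interval −0.35 to 0.80, adjusted p = 0.592). The lines differed by −1.36 (SE 0.435, adjusted p = 0.0145), a call lost with sample groups 3 and 6 only (−0.55, adjusted p = 0.329).

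The other ENaC subunits were near or at 0. Scnn1g, the gamma subunit, had 0 counts in all 23 samples. Scnn1b, the beta subunit, had 0 to 11 counts in NRK-52E at pH 7.4 and 6 to 22 at pH 6.0. Its log2 fold change there was 1.43 (SE 0.587, adjusted p = 0.0385), opposite in sign to that of Scnn1a. In NRK-49F Scnn1b had 0 to 10 counts at pH 7.4 and 2 to 9 at pH 6.0 (adjusted p = 0.682).

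Sgk1 (ENSRNOG00000011815, chromosome 1), the serum- and glucocorticoid-regulated kinase, fell at pH 6.0 in both lines. In NRK-52E it was at 14.7, 16.3 and 18.6 FPM at pH 7.4 and at 6.34, 8.13 and 8.73 FPM at pH 6.0 (lowest, median, highest of 6). In NRK-49F it was at 88.2, 97.5 and 104 FPM at pH 7.4, and the 5 acidic samples were at 70.6, 66.7, 64.9, 73.6 and 67.6 FPM. No acidic sample reached a control of its line. The fall was 2.12-fold in NRK-52E (log2 fold change −1.09, SE 0.0824, adjusted p = 8.58e-11) and 1.40-fold in NRK-49F (−0.49, SE 0.0808, adjusted p = 5.78e-05). Within sample groups 1, 3, 4 and 6 the change was −1.0, −1.18, −0.50 and −0.48, and each passed, the largest adjusted p being 0.00269. The fall was larger in NRK-52E by 0.60 on the log2 scale (SE 0.114, adjusted p = 1.98e-04), while the level was lower there at both pH values. The 4 conditions ordered as NRK-49F at pH 7.4, NRK-49F at pH 6.0, NRK-52E at pH 7.4 and NRK-52E at pH 6.0, at 96.5, 68.7, 16.4 and 7.73 FPM, with no overlap between neighbours.

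Nedd4l (ENSRNOG00000017610, chromosome 18), the ubiquitin ligase that Sgk1 inhibits, moved in the same direction as Sgk1. In NRK-52E it was at 28.4, 32.0 and 37.0 FPM at pH 7.4 and at 17.4, 19.6 and 22.4 FPM at pH 6.0 (lowest, median, highest of 6). In NRK-49F it was at 89.2, 103 and 109 FPM at pH 7.4 and at 74, 87.9, 81.2, 82.5 and 85.1 FPM at pH 6.0. The groups did not overlap in either line, though in NRK-49F the lowest control, 89.2 FPM in A052, lay close to the highest acidic sample. It fell 1.65-fold in NRK-52E (log2 fold change −0.72, SE 0.0808, adjusted p = 4.88e-08) and 1.25-fold in NRK-49F (−0.32, SE 0.0825, adjusted p = 0.00517). The changes within sample groups 1, 3, 4 and 6 were −0.77, −0.67, −0.37 and −0.28, all past the threshold with every sample in the fit. The call in group 4 was lost without A042 (−0.25, adjusted p = 0.188), and that in group 6 without A051, A053, A054 or A055 (adjusted p = 0.0900, 0.132, 0.0927 and 0.0722). With sample groups 3 and 6 only, the change in NRK-49F had an adjusted p of 0.0547. The lines differed by −0.41 (SE 0.115, adjusted p = 0.00664), a call lost with sample groups 1 and 4 only (−0.40, adjusted p = 0.0800). The order of the 4 conditions was that of Sgk1, at 102, 82.1, 32.5 and 19.7 FPM.

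**Figure D4:**
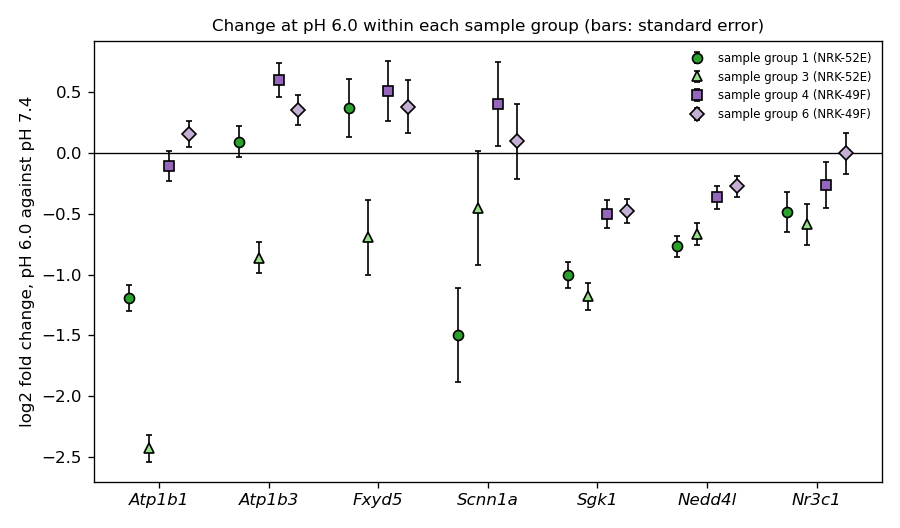
Log2 fold change at pH 6.0 against pH 7.4 within each sample group (1 and 3 in NRK-52E, 4 and 6 in NRK-49F) for 7 of the 9 genes, with SE from the edgeR fit of all 8 combinations. Sgk1 and Nedd4l fall in all 4 sample groups, whereas Atp1b1 falls by 1.19 in sample group 1 and by 2.42 in sample group 3.

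Nr3c1 (ENSRNOG00000014096, chromosome 18), the glucocorticoid receptor, was at 144, 210 and 238 FPM in NRK-52E at pH 7.4 and at 121, 140 and 154 FPM at pH 6.0 (lowest, median, highest of 6). The groups overlapped through the lowest control, A035. It fell 1.45-fold (log2 fold change −0.53, SE 0.119, adjusted p = 4.53e-04), by 0.49 in sample group 1 and 0.59 in sample group 3. The Nr3c1 call in sample group 1 was lost without A021 (−0.38, adjusted p = 0.105) or without A026 (−0.44, adjusted p = 0.0747). In NRK-49F it was at 139, 172 and 192 FPM at pH 7.4 and at 115, 169, 170, 144 and 188 FPM at pH 6.0, which overlap (log2 fold change −0.11, 95% interval −0.37 to 0.15, adjusted p = 0.563). The difference between the lines, −0.43 (SE 0.172), had an adjusted p of 0.050, just over the threshold. Its log2 level difference between the lines was the smallest of the 9 genes, at 0.25 at pH 7.4 (adjusted p = 0.0608) and −0.17 at pH 6.0 (adjusted p = 0.214).

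Nr3c2 (ENSRNOG00000034007, chromosome 19), the mineralocorticoid receptor, was clearly present in NRK-49F and near the floor in NRK-52E. In NRK-49F it was at 13.7, 16 and 19.2 FPM at pH 7.4 (lowest, median, highest of 6) and at 20.5, 43, 32.8, 29.2 and 40.6 FPM at pH 6.0. All 5 acidic samples lay above all 6 controls, with a spread of 9.03 FPM (SD) against 1.87. It rose 2.04-fold, from 16.3 to 33.2 FPM (log2 fold change 1.03, SE 0.234, adjusted p = 0.00173), by 0.87 in sample group 4 (adjusted p = 0.0471) and 1.17 in sample group 6 (adjusted p = 0.00494). The call in sample group 4, which has 2 acidic samples, was lost in 15 of 23 fits that left out 1 sample, with RLE scaling (adjusted p = 0.0512) and with sample groups 1 and 4 only (adjusted p = 0.118). Without A043 the change there was 0.24 (adjusted p = 0.609). In NRK-52E it had 23, 9, 3, 5, 2 and 2 counts at pH 7.4 and 0, 4, 1, 2, 1 and 0 at pH 6.0. These overlapped, and 23 of the 44 counts at pH 7.4 came from A021. The log2 fold change was −2.20 (SE 0.625, adjusted p = 0.00391), −1.63 without A021 (adjusted p = 0.0327) and −2.90 without A025 (adjusted p = 0.00104). Within sample group 3 the change of −1.47 did not pass (adjusted p = 0.297), nor did that in sample group 1 without A021 (−1.86, adjusted p = 0.124). The ratio of pooled counts was 0.196 (95% interval 0.0796 to 0.420) and, without A021, 0.304 (0.117 to 0.715), counting error only. In A021 the fibroblast marker Pdgfra, at 251 to 366 FPM in NRK-49F at pH 7.4, was also highest among the NRK-52E samples, at 4.73 FPM against 0.679 to 2.21 in the other controls and at most 0.105 at pH 6.0. The sum of all 10 fibroblast markers went the other way. In A021 it was the lowest of the 6 NRK-52E controls, at 4907 FPM against 5037 to 8103 in the others. What part either has in the Nr3c2 counts was not tested.

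The ratio of Nr3c1 to Nr3c2 counts fell in NRK-49F, where its mean log2 was 3.37 ± 0.154 at pH 7.4 (3.11 to 3.56) and 2.27 ± 0.192 at pH 6.0 (1.97 to 2.48). The samples did not overlap, and the difference of −1.11 had an exact two-sided permutation p of 0.00433, the smallest that 6 against 5 samples can give (adjusted 0.00866). In NRK-52E the ratio rested on 0 to 23 counts of Nr3c2 and did not pass (difference 1.39, exact p = 0.0671, adjusted 0.0671).

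Between the lines at the same pH, 8 of 9 genes differed at pH 7.4 (68.8% of all tested genes) and 8 of 9 at pH 6.0 (75.5%). At both pH values 2 were higher in NRK-52E, Atp1b1 and Atp1b2 (35% of all tested genes at pH 7.4 and 36.6% at pH 6.0), and 6 were lower (33.9% and 38.9%). Atp1b2 passed the filter on low counts only through acidic NRK-52E samples, so its call at pH 6.0 is no independent support. Atp1b1 was 12.4-fold higher in NRK-52E at pH 7.4 (log2 difference 3.63, SE 0.212) and 3.61-fold higher at pH 6.0 (1.85, SE 0.212). Fxyd5 was 16.5-fold lower in NRK-52E at pH 7.4 (−4.05, SE 0.433), Sgk1 5.86-fold lower (−2.55, SE 0.0818), Scnn1a 3.34-fold lower (−1.74, SE 0.290), Nedd4l 3.14-fold lower (−1.65, SE 0.0808) and Atp1b3 1.41-fold lower (−0.49, SE 0.145). At pH 6.0 those log2 differences were −4.34, −3.15, −3.10, −2.06 and −1.29. Nr3c2 was 52.1-fold lower in NRK-52E at pH 7.4 (−5.70, SE 0.322). At pH 6.0 its level in NRK-52E was at or under the floor in all samples but 1, and the fitted difference of −8.93 is not a bound.

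Within the sample groups, which are possible batches, the number of members called was 6 in group 1 (48.9% of all tested genes), 5 in group 3 (57.4%), 4 in group 4 (23%) and 3 in group 6 (21.2%). The members called in groups 1 and 3 were all lower at pH 6.0, as were 30.1% and 33.6% of all tested genes. In NRK-52E the change differed between sample groups for 2 members (10.6% of all tested genes), Atp1b1 and Atp1b3, both more negative in sample group 3 (6.87%). For Atp1b1 the change was −1.19 (SE 0.105) in sample group 1 and −2.42 (SE 0.110) in sample group 3, a difference of −1.23 (SE 0.148, adjusted p = 3.10e-05), so the direction held and the size did not. In NRK-49F it differed for none of the 9 and for 0 of the 14777 genes by edgeR (0.0%, with 596 at an unadjusted p under 0.05), and for 10 genes by DESeq2.

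The wider pathway was described from lists of FXYD genes, of ENaC subunits and proteases, of kinases and ligases, and of receptors and their targets. All 4 lists are read against the shares of all tested genes called, 24.7% higher and 36.6% lower in NRK-52E and 14.5% higher and 14.4% lower in NRK-49F. Of 4 tested FXYD genes, 1 was lower in NRK-52E and none passed in NRK-49F. It was Fxyd1, phospholemman, which fell from 19.7 ± 7.17 to 7.58 ± 1.92 FPM (−1.37, SE 0.236, adjusted p = 2.32e-05). The Fxyd1 change was −0.68 in sample group 1 (adjusted p = 0.050, just over the threshold) and −1.98 in sample group 3 (adjusted p = 7.42e-06), and their difference passed (−1.30, adjusted p = 0.0415).

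Of 6 tested ENaC subunits, channel-activating proteases and inhibitors, 2 were higher and 2 lower in NRK-52E, and 2 were higher and none lower in NRK-49F. Spint1, an inhibitor of such proteases, rose in NRK-52E from 1.50 ± 0.391 to 10.0 ± 0.959 FPM (log2 fold change 2.72, SE 0.240, adjusted p = 1.05e-09). Furin, a protease that cleaves ENaC, rose in NRK-49F from 165 ± 11.9 to 247 ± 25.3 FPM (0.58, SE 0.110, adjusted p = 2.78e-04). The median log2 fold change of the 6 genes was −0.10 in NRK-52E and 0.41 in NRK-49F.

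Of 15 tested kinases, ligases and their partners, 3 were higher and 5 lower in NRK-52E, and none was higher and 5 lower in NRK-49F, with median log2 fold changes of −0.0068 and −0.15. Usp2, a deubiquitinase that acts on ENaC, rose in NRK-52E from 5.20 ± 1.26 to 12.9 ± 2.99 FPM (1.31, SE 0.162, adjusted p = 2.30e-07). Mlst8, a subunit of the mTOR complexes, of which mTORC2 activates Sgk1, fell in NRK-52E from 13.7 ± 1.77 to 5.40 ± 1.23 FPM (−1.33, SE 0.153, adjusted p = 7.51e-08). Cnksr3, a scaffold for the ENaC complex, fell in NRK-49F from 35.6 ± 4.39 to 24.0 ± 3.59 FPM (−0.57, SE 0.109, adjusted p = 3.22e-04).

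Of 13 tested receptors, steroid enzymes, chaperones and receptor targets, 6 were higher and 5 lower in NRK-52E, and 4 were higher and none lower in NRK-49F. Klf9 and Tsc22d3, both textbook targets of the glucocorticoid receptor, were named as the list's largest rise and largest fall in NRK-52E. Their opposite directions follow from that choice. Klf9 rose from 10.8 ± 3.40 to 30.5 ± 5.21 FPM (1.49, SE 0.238, adjusted p = 9.15e-06) and Tsc22d3 fell from 324 ± 50.9 to 173 ± 58.4 FPM (−0.91, SE 0.162, adjusted p = 3.51e-05). The Tsc22d3 change also differed between sample groups 1 and 3 (−0.37 and −1.55, difference −1.18, adjusted p = 4.87e-04). Hsd11b1, the enzyme that regenerates active glucocorticoid from its inert form, rose in NRK-49F from 147 ± 16.5 to 284 ± 33.8 FPM (0.95, SE 0.203, adjusted p = 0.00102).

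The genes whose pattern over the 23 samples was most like each member were found by the root mean square (RMS) difference of centred log2(FPM + 0.5). For Nr3c1 they were Ankfy1 (RMS 0.100) and Reep3 (0.126), and for Atp1b3 Edem2 (0.123) and Wdr73 (0.128). The same pairs came out when 1 was added in place of 0.5. For Nedd4l they were Slc35b4 (0.169) and Shox2 (0.174), for Sgk1 C1r (0.225) and Cd151 (0.234), for Nr3c2 Igfbp5 (0.287) and Ggta1 (0.310), for Scnn1a Pld2 (0.306) and Tmem131l (0.323) and for Fxyd5 Manba (0.506) and Dnaja4 (0.521), and 1 gene of each of these pairs changed with the added value. For Atp1b1 they were Fut8 (0.291) and Gpsm3 (0.370) and for Atp1b2 Abce1 (0.183) and Top3b (0.185), and neither pair came out with 1 added. The samples share 2 lines and 2 pH values, so such likeness describes the pattern only.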

How the data were processed

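Poly(A) RNA from 23 samples of the rat kidney lines NRK-52E and NRK-49F was sequenced as read pairs. The authors mapped reads with HISAT2 (version 2.1.0), counted pairs over exons with featureCounts, multi-mapping reads included, annotated genes with Ensembl, and deposited raw counts per gene, as whole numbers. Their methods name the rat genome rn7 and the submitters' processing notes rn6. The strand setting is not given in the sources used here, so antisense overlaps cannot be told apart, and related subunits may share multi-mapping reads. From the table, 13 columns of per-sample values that match no label were not used.

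Samples were grouped by line and pH from the labels. Genes were filtered with filterByExpr (minimum count 10, minimum total 15), scaled by TMM, and tested with edgeR 4.0.16 by quasi-likelihood over all 23 samples in 1 model of 4 conditions, with Benjamini-Hochberg adjustment over 14777 genes and a threshold of 0.05. SE are taken from the log2 fold change and F statistic. Changes within sample groups come from a model of all 8 combinations of line, pH and sample group. FPM were computed from these scaled libraries, and 0.5 was added before log2. Ratios of 2 genes were compared by exact two-sided permutation tests (scipy 1.17.1) over 4 tests. Intervals of pooled counts are exact at 95% and cover counting error only.

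Alternatives were RLE and upper quartile scaling, 2 other filters, the likelihood ratio test, DESeq2 1.42.0, a threshold of 0.01, the sample group as a block or alone, each line alone, thinning to the smallest library, and leaving out each sample. In simulated counts for the acid response in NRK-52E, 166 of 200 changed genes were recovered among 14675, with 8 others called. None of 55 replicate pairs agreed within sampling noise (chi-square per gene 5.91 to 133).

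Named genes are the 9 members in every comparison, the partner subunits Fxyd2, Scnn1b and Scnn1g, from each of 4 pathway lists and each line the further gene with the largest rise and fall among those past the threshold with a mean of at least 5 FPM in that line, the 2 genes with the most similar pattern to each member, and marker genes. Members and lists were chosen with earlier results of these data known. Pathway genes not in the table (Fxyd3, Wnk4, Dusp1) and the markers Krt19 and Ocln were not analysed here. Some partner genes of the pump and the list that holds them are not reported here.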

Additional observations from a re-analysis of the deposited data

Results flagged for a closer look

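In 3 of the 36 groups of 4 to 10 samples in which the levels of the 9 genes were looked at, 1 sample stood apart from the others of its group by Dixon's criterion, which chance meets in about 1 of 20 groups. All 3 were NRK-49F samples at pH 7.4. Atp1b2 was at 0.265 FPM in A051, from 7 counts, and at 0 counts in the other 5. Scnn1a was at 4.85 FPM in A053, above 3.26 to 3.85 FPM in the others. Nedd4l was at 89.2 FPM in A052, below 103 to 109 FPM in the others.

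The acid response differed between the lines by the edgeR test of the difference for 6 genes, each more negative in NRK-52E than in NRK-49F. On the log2 scale the difference was −1.78 for Atp1b1, −0.80 for Atp1b3, −1.36 for Scnn1a, −0.60 for Sgk1, −0.41 for Nedd4l and −3.23 for Nr3c2. Of these, Atp1b3 and Nr3c2 were called in opposite directions in the lines, and Sgk1 and Nedd4l in the same direction. The Atp1b3 fall in NRK-52E was seen in sample group 3 only. Its call was lost with DESeq2 (adjusted p = 0.0673). The value for Nr3c2 rests on at most 23 counts per sample in NRK-52E and was −2.66 without A021.

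Within NRK-52E, the acid response differed between sample groups 3 and 1 by −1.23 for Atp1b1 and by −0.95 for Atp1b3. The sample groups are not described in the labels, so what sets them apart was not tested.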

How the results depend on the processing

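Of 225 recomputed member changes in the acid responses, 203 kept direction and call, 15 lost the call, 2 gained it and 5 changed sign. Between the lines 154 of 156 kept both, and among differences of the responses 96 kept both, 4 lost the call, 3 gained it and 2 changed sign. Members called in NRK-52E numbered 5 with at least 10 counts in every sample (7075 of 11185 genes called). They also numbered 5 with sample groups 3 and 6 only (8191 of 14666 genes) and with the line fitted alone (8335 of 13377 genes). The filter of 10 counts left Atp1b2, Scnn1a and Nr3c2 untested, so fewer members could be called. With the line fitted alone, Atp1b2 and Nr3c2 did not pass the filter on low counts and were untested, and Atp1b3 lost its call. Between the lines 5 were called with that filter at either pH (7469 of 11185 genes at pH 7.4 and 8335 of 11185 at pH 6.0). Genes called in NRK-49F numbered 2661 at an adjusted p under 0.01 and 2702 with sample groups 3 and 6 only, and for the difference 3248 with sample groups 1 and 4 only. By sample group in NRK-49F DESeq2 called 10 genes and edgeR 0. The split of calls in NRK-52E did not move by over 10 percentage points with another scaling.

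Signs changed for Fxyd5 in NRK-52E (−0.043 with the sample group as a block, −0.69 with groups 3 and 6 only), Atp1b3 in NRK-52E (0.10 with groups 1 and 4 only), Atp1b1 in NRK-49F (−0.11 with groups 1 and 4), Atp1b2 in NRK-49F (−0.65 with groups 3 and 6) and the difference for Atp1b2 (−3.91 with groups 1 and 4, −0.55 thinned). Within sample groups the ratio Atp1b1 to Atp1b3 in NRK-52E changed by −1.28 and −1.56 and Nr3c1 to Nr3c2 in NRK-49F by −1.06 and −1.16, but neither 3 against 3 samples nor, in sample group 4, 3 against 2 can reach 0.05.

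Leaving out 1 sample at a time, members called ranged from 6 to 8 in NRK-52E, 3 to 5 in NRK-49F, 6 to 7 for the difference, 7 to 9 between the lines and 2 to 4 in sample group 4, where genes called ranged from 1836 to 4762 and both lows were without A042. Genes by sample group in NRK-49F ranged from 0 to 11 (11 without A043). Atp1b2 was tested in 18 of the 23 fits, so in the others fewer members could be called. The ratio Nr3c1 to Nr3c2 in NRK-52E ranged from 1.10 to 1.74 and Atp1b1 to Atp1b3 in NRK-49F from −0.48 to −0.19. Signs changed for Fxyd5 in NRK-52E (−0.14 to 0.36) and the difference for Atp1b2 (−2.82, without A051, to 0.91). Within sample groups they changed for Atp1b3 in group 1 (−0.042 to 0.16), Atp1b1 (−0.25 to 0.026) and Scnn1a (−0.15 to 0.80) in group 4, and Atp1b2 (−4.18 to 3.48), Scnn1a (−0.0030 to 0.30) and Nr3c1 (−0.13 to 0.091) in group 6. For differences by sample group they changed for Nr3c1 in NRK-52E (−0.28 to 0.0039) and in NRK-49F for Atp1b3 (−0.48 to 0.044), Fxyd5 (−0.43 to 0.25), Nedd4l (−0.027 to 0.22), Nr3c2 (−0.14 to 0.93), Scnn1a (−0.71 to 0.25) and Sgk1 (−0.029 to 0.088). Apart from the constructions named, the cause was not tested. No paired analysis was possible because no replicate code is shared between pH values or lines. Depth limits Atp1b2 in both lines and Nr3c2 in NRK-52E, which lie near the floor of 3 counts.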

Other observations

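Among genes of the corticosteroid list that are not members, Hsd11b1, which regenerates active glucocorticoid, was at 147 ± 16.5 FPM (SD, n = 6) in NRK-49F at pH 7.4 and at 1.29 ± 0.962 FPM (n = 6) in NRK-52E. It rose in NRK-49F to 284 ± 33.8 FPM (n = 5) and fell in NRK-52E to 0.0766 ± 0.0277 FPM (n = 6), where every sample had 1 to 3 counts at pH 6.0. Its counter-enzyme Hsd11b2, which inactivates glucocorticoid, had 2 to 13 counts in NRK-52E at pH 7.4 and 0 to 4 at pH 6.0. Hsd11b2 was singled out after its values were seen.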
